A study of Homo sapiens with 12 samples.

Results

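The 7 genes described here are TP73, MDM2, MDM4, PPM1D, RCHY1, USP7 and HIPK2, a p53 paralogue and 6 genes whose proteins act on p53 directly. They were taken by symbol from the table of 26334 genes counted in each library. All 7 were among the 15352 genes kept by a filter on low counts, although TP73 had few reads. The gene of p53 itself was not analysed here. The libraries are poly(A) RNA of A549 cells, an established human lung adenocarcinoma line that retains functional p53. All cells carried a lentiviral hairpin, either a control (shControl) or one directed at RNF113A, a RING protein of the spliceosome (shRNF113A), and all had been selected in puromycin at 1 µg/ml for 4 days. Cells of each kind were left untreated or exposed to Cisplatin, a DNA-crosslinking drug, at 25 µg/ml for 20 h by the sample labels, with 3 biological replicates in each of the 4 conditions. The study's text gives 25 µM for its apoptosis assays, so the unit of the dose is uncertain, and the labels were followed. The cells are infected populations of 1 line, and the labels describe 1 shRNA against RNF113A, so an effect of RNF113A loss and an effect particular to that shRNA cannot be told apart. The comparisons ask how Cisplatin acts on these genes and whether that response changes when RNF113A is depleted.

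p53 is a transcription factor that is made continuously and destroyed almost as fast. MDM2, a RING ubiquitin ligase, marks it for the proteasome, and MDM4, a close relative of MDM2 with little ligase activity of its own, binds MDM2 and covers the part of p53 that activates transcription. DNA damage leads to phosphorylation of p53, which then escapes MDM2 and activates its targets. MDM2 and PPM1D are among these targets, so that p53 raises its own inhibitors in a negative feedback loop. RCHY1 (PIRH2) is a further RING ubiquitin ligase of p53, and USP7 (HAUSP) removes ubiquitin from both p53 and MDM2. PPM1D (WIP1) is a phosphatase that reverses damage-induced phosphorylation of p53 and of its upstream kinases, whereas HIPK2 is a kinase that phosphorylates p53 after severe damage. TP73 encodes p73, a relative of p53 that binds the same DNA elements.

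Each library held 33859097 to 56071514 read pairs, with the fewest in Cisplatin-treated shRNF113A cells (33859097 to 39414380). In these same libraries 9.05 to 9.62% of the read pairs overlapped no annotated exon on the counted strand, against 4.55 to 6.78% in the other 9. Pairs within introns fall in this class, so it is not separate from the intronic reads described below. The part of this difference in the results below was not tested. The study examined the RNF113A protein of control and depleted A549 cells by western blot, whereas these libraries measure only RNA. RNF113A mRNA was only modestly lower in cells labelled shRNF113A. Its level in counts per 1000000 assigned read pairs (CPM, TMM-scaled) was 20.3, 19.5 and 19.8 in untreated shControl cells and 15.3, 15.8 and 16.8 in untreated shRNF113A cells, a log2 fold change of -0.31 ± 0.09 (SE, adjusted p = 0.0247, edgeR quasi-likelihood test, all adjusted p-values below being of this kind unless stated). Under Cisplatin it was 31.5, 28.9 and 27.7 in shControl cells and 25.8, 24.3 and 29.9 in shRNF113A cells, values that overlap (adjusted p = 0.233). The untreated call was lost without untreated shControl replicate 1 (-0.30, adjusted p = 0.0680) or 3 (-0.31, adjusted p = 0.0563), or without untreated shRNF113A replicate 1 (-0.28, adjusted p = 0.0940) or 2 (-0.30, adjusted p = 0.0770). The line's markers were present: KRT8 was at 1936 to 7450, ALDH1A1 at 2978 to 9030 and NQO1 at 1255 to 2204 CPM, while CDKN2A and CDKN2B, whose locus this line lacks, were at 0 in all 12. KRT19 was low at 0.674 to 5.32 CPM. The 6 markers of blood, fibroblasts and endothelium summed to 3.97 to 35.5 CPM, nearly all of it COL1A1.

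The 7 genes were expressed at very different levels, and Cisplatin rearranged their order. Per kilobase of exon, untreated shControl cells held most USP7 (36.1 ± 4.08 CPM per kb; SD, n = 3 as for all levels below), followed by MDM2 at 15.2 ± 1.14, PPM1D at 6.82 ± 0.262, HIPK2 at 6.42 ± 2.03, RCHY1 at 3.53 ± 0.130, MDM4 at 1.91 ± 0.0630 and TP73 at 0.0708 ± 0.0283 CPM per kb. Only the libraries of the neighbours PPM1D and HIPK2 overlapped. After Cisplatin, shControl cells held most MDM2, at 165 ± 16.0 CPM per kb, then PPM1D at 48.9 ± 11.3 and USP7 at 32.0 ± 2.02. RCHY1 (5.49 ± 0.162), HIPK2 (3.02 ± 1.14) and MDM4 (2.78 ± 0.345 CPM per kb) followed, the last 2 with overlapping libraries. In untreated shRNF113A cells the order began as in untreated shControl cells, but HIPK2, at 2.11 ± 0.302 CPM per kb, stood below RCHY1 (3.69 ± 0.476) and MDM4 (2.52 ± 0.180). In Cisplatin-treated shRNF113A cells MDM2 led at 91.8 ± 10.3 CPM per kb, USP7 (30.6 ± 1.46) stood above PPM1D (26.2 ± 2.09), and HIPK2 fell to 0.840 ± 0.0379. In bulk RNA a change of level within each cell cannot be told apart from a change in the share of cells that express a gene.

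**Figure D1:**
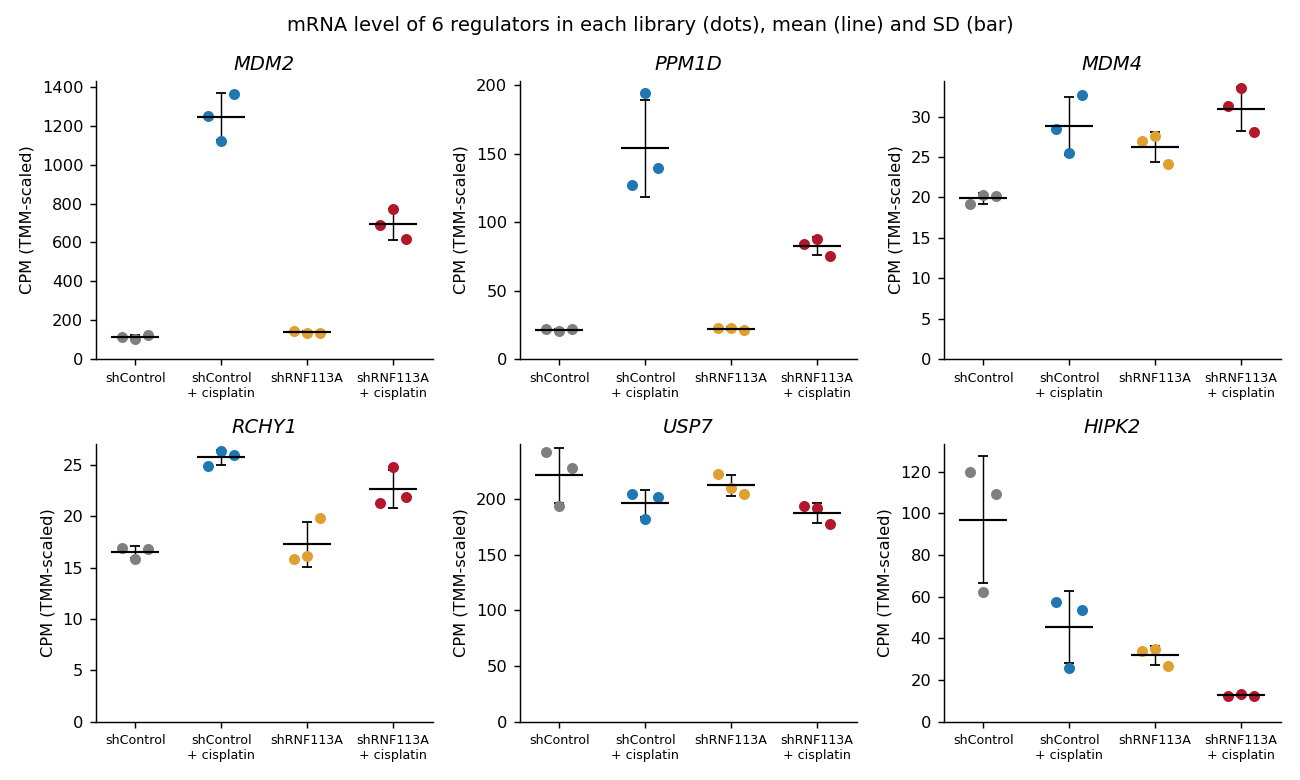
Level of 6 of the genes in each of the 12 libraries, in TMM-scaled CPM on a linear axis that starts at 0. Dots are libraries, lines are means and bars are SDs (n = 3); MDM2 rose from 115 to 1247 CPM in shControl cells and to 693 CPM in shRNF113A cells, while HIPK2 was highest in untreated shControl cells and lowest, at 12.7 CPM, in Cisplatin-treated shRNF113A cells.

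Cisplatin acted on most of the 7 genes, and so it did on most genes of these cells. In shControl cells 5 of the 7 passed an adjusted p of 0.05 (4 higher, 1 lower), where 55% of the 15352 genes tested did so (28% higher and 27% lower). Of the 7, 3 also changed at least 2-fold, against 19.8% of all genes. In shRNF113A cells 5 of the 7 passed (3 higher, 2 lower), against 60.2% of all genes (32.4% higher and 27.8% lower), and 4 changed at least 2-fold (23.1%). Depletion was called for 2 of the 7 in untreated cells, 1 higher and 1 lower, against 27.4% of all genes (12.8% higher and 14.6% lower). Under Cisplatin it was called for 3 of the 7, all lower, against 42.9% (21.1% higher and 21.8% lower). HIPK2 alone was past 2-fold in each of these comparisons, where 8.66% and 12.3% of all genes were. The interaction, which tests whether the response to Cisplatin differed between shControl and shRNF113A cells, was called for 2 of the 7, MDM2 and PPM1D, both negative, where 4.25% of all genes passed, 1.98% with a positive and 2.27% with a negative sign. MDM2 was also past 2-fold, against 1.28%. In the study's additive model, with 1 effect for the drug and 1 for depletion over all 12 libraries, all 7 passed for Cisplatin, 4 higher and 3 lower, against 66.8% of all genes (34.8% higher and 32.1% lower), with 4 past 2-fold (21.5%). For depletion 4 passed, 1 higher and 3 lower, against 47.5% (23.5% higher and 24% lower), with 2 past 2-fold (11%). When reads of either strand were counted, TP73 was called in this model neither for Cisplatin (-0.11, adjusted p = 0.715) nor for depletion (-0.43, adjusted p = 0.164). The additive depletion calls were the least steady: leaving out any single library left 2 or 3 of the 4. MDM4 was lost in 8 of the 12 such fits (adjusted p up to 0.0946, without treated shRNF113A replicate 2), PPM1D in 5 (up to 0.107, without treated shRNF113A replicate 3, and 0.0520 with library sizes in place of TMM scaling) and TP73 in 2, without untreated shControl replicate 2 (0.0562) or untreated shRNF113A replicate 3 (0.0567).

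MDM2 (ENSG00000135679; chr12:69201956-69239214, plus strand, hg19 as all gene positions here), the ubiquitin ligase at the centre of the feedback loop, showed the largest rise of the 7. Its level in untreated shControl cells was 116, 105 and 123 CPM, and after Cisplatin it was 1252, 1125 and 1366 CPM. In shRNF113A cells it was 144, 133 and 134 CPM untreated and 688, 773 and 618 CPM after Cisplatin. No library of a treated condition overlapped one of an untreated condition, and no treated shRNF113A library reached a treated shControl library. MDM2 rose 10.9-fold in shControl cells (log2 fold change 3.45 ± 0.11, adjusted p = 9.79e-10), which was the 176th highest of the 15352 log2 fold changes, and 5.05-fold in shRNF113A cells (2.34 ± 0.10, adjusted p = 6.73e-09). The difference between these responses was -1.11 ± 0.14 on the log2 scale (95% interval -1.38 to -0.83, adjusted p = 0.00626). It lay between -1.24 and -1.03 whichever library was left out, with adjusted p at most 0.0292. Under Cisplatin MDM2 was 1.80-fold lower in shRNF113A than in shControl cells (-0.85 ± 0.10, adjusted p = 7.01e-05). In untreated cells it was not called, at 0.26 ± 0.10 (adjusted p = 0.0725), although the 3 shRNF113A libraries lay above the 3 shControl libraries, and it was called with library sizes in place of TMM scaling (0.28, adjusted p = 0.0465).

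PPM1D (ENSG00000170836; chr17:58677544-58741849, plus strand), the phosphatase of the loop, had the same order of conditions at a lower level. It was at 21.9, 20.5 and 21.9 CPM in untreated shControl cells and at 127, 194 and 140 CPM after Cisplatin. In shRNF113A cells it was at 22.9, 22.4 and 21.4 CPM untreated and at 84.3, 87.8 and 75.03 CPM after Cisplatin. The untreated libraries of the 2 cell types overlapped, whereas all treated shRNF113A libraries lay below all treated shControl libraries. PPM1D rose 7.18-fold in shControl cells (2.84 ± 0.14, adjusted p = 1.11e-08) and 3.70-fold in shRNF113A cells (1.89 ± 0.14, adjusted p = 2.45e-07). The interaction was -0.96 ± 0.19 (95% interval -1.32 to -0.59, adjusted p = 0.0189). Without Cisplatin-treated shRNF113A replicate 3 it was -0.90 (adjusted p = 0.0537) and without untreated shRNF113A replicate 1 it was -0.94 (adjusted p = 0.0580), so that neither fit passed the threshold. Under Cisplatin PPM1D was 1.87-fold lower in shRNF113A cells (-0.90 ± 0.13, adjusted p = 0.000256), and in untreated cells the log2 difference was 0.06 ± 0.13 (adjusted p = 0.783).

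**Figure D2:**
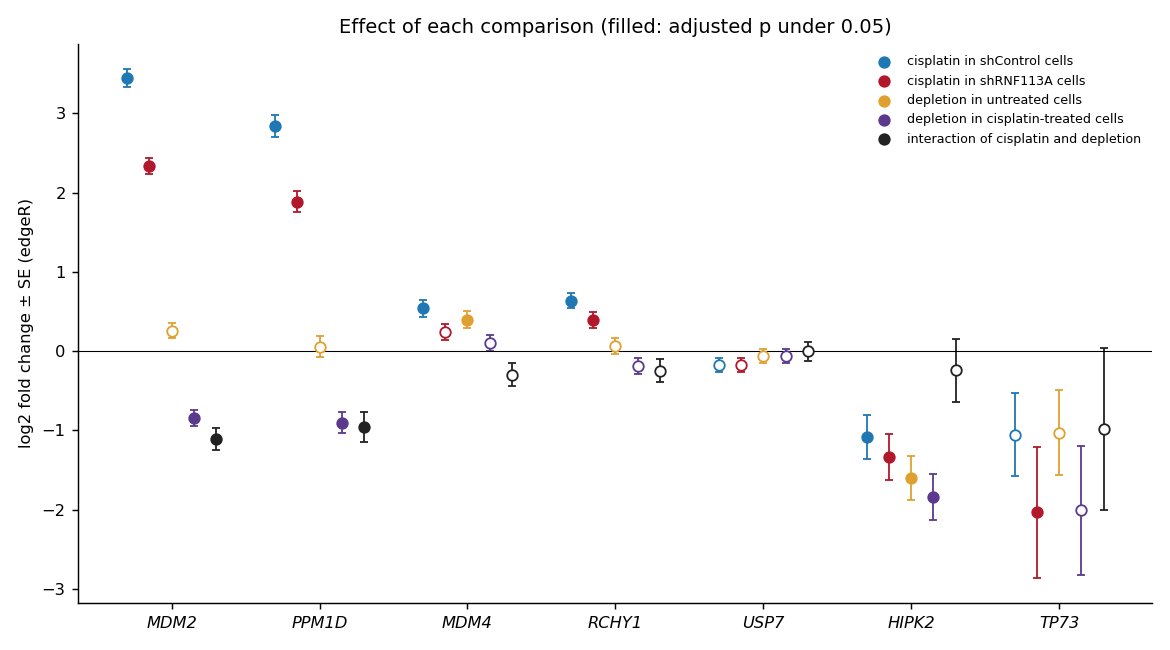
Log2 fold change of each gene in 4 comparisons and in their interaction, with bars of 1 SE from edgeR; filled dots have an adjusted p under 0.05. MDM2 and PPM1D have positive Cisplatin effects of 1.89 to 3.45 and negative interactions, USP7 lies near 0 throughout, and HIPK2 is negative in all 4 comparisons.

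MDM4 (ENSG00000198625; chr1:204485511-204542871, plus strand), the partner of MDM2, changed far less. It was at 19.1, 20.3 and 20.2 CPM in untreated shControl cells and at 28.4, 25.5 and 32.6 CPM after Cisplatin, with no overlap. In shRNF113A cells it was at 27.0, 27.6 and 24.1 CPM untreated and at 31.3, 33.5 and 28.1 CPM after Cisplatin. MDM4 rose 1.45-fold with Cisplatin in shControl cells (0.54 ± 0.10, adjusted p = 0.000799), while in shRNF113A cells the change was 0.24 ± 0.10 (adjusted p = 0.0615), a value that passed without treated shRNF113A replicate 3 (0.31, adjusted p = 0.0360) and with library sizes in place of TMM scaling (0.33, adjusted p = 0.0192). It was 1.32-fold higher in untreated shRNF113A than in untreated shControl cells (0.40 ± 0.10, adjusted p = 0.0138). That call was lost without untreated shRNF113A replicate 1 (0.38, adjusted p = 0.0506) or replicate 2 (0.36, adjusted p = 0.0590). Under Cisplatin the log2 difference between the cell types was 0.10 ± 0.10 (adjusted p = 0.450), and the interaction was -0.30 ± 0.15 (adjusted p = 0.262).

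RCHY1 (ENSG00000163743; chr4:76404247-76439974, minus strand), the other ubiquitin ligase, also rose moderately. It was at 17.0, 15.8 and 16.8 CPM in untreated shControl cells and at 24.9, 26.3 and 26.01 CPM after Cisplatin. In shRNF113A cells it was at 15.8, 16.2 and 19.8 CPM untreated and at 21.4, 24.8 and 21.9 CPM after Cisplatin. Treated and untreated libraries did not overlap in either cell type. The rise was 1.56-fold in shControl cells (0.64 ± 0.10, adjusted p = 0.000168) and 1.31-fold in shRNF113A cells (0.39 ± 0.10, adjusted p = 0.00462), and both calls held whichever library was left out. The interaction was -0.24 ± 0.14 (95% interval -0.52 to 0.03, adjusted p = 0.347), and depletion was called neither in untreated cells (0.06 ± 0.10) nor under Cisplatin (-0.18 ± 0.10, adjusted p = 0.154; -0.31 and 0.0461 without treated shRNF113A replicate 2).

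USP7 (ENSG00000187555; chr16:8985951-9058371, minus strand), the deubiquitinase, was the steadiest of the 7. It was at 242, 193 and 227 CPM in untreated shControl cells, at 205, 182 and 201 CPM after Cisplatin, at 222, 210 and 204 CPM in untreated shRNF113A cells and at 194, 192 and 177 CPM in treated shRNF113A cells. The log2 change with Cisplatin was -0.17 ± 0.09 in shControl cells (adjusted p = 0.112) and -0.18 ± 0.09 in shRNF113A cells (adjusted p = 0.101). Without untreated shControl replicate 2, the lowest untreated library, these became -0.26 (adjusted p = 0.0106) and -0.18 (adjusted p = 0.0356), and without treated shControl replicate 2 the second was -0.21 (adjusted p = 0.0431). The second was called as well in a fit of only the 6 libraries compared (-0.23, adjusted p = 0.00609) and with DESeq2 (-0.22, adjusted p = 0.0388). The additive model, which pools both, gave -0.18 ± 0.06 (adjusted p = 0.0229), a call lost without untreated shControl replicate 1 (-0.15, adjusted p = 0.0590), Cisplatin-treated shRNF113A replicate 3 (-0.16, adjusted p = 0.0522) or untreated shRNF113A replicate 1 (-0.16, adjusted p = 0.0558), and with library sizes in place of TMM scaling (-0.08, adjusted p = 0.221). The 95% interval of the depletion effect was -0.23 to 0.11 in untreated cells and -0.24 to 0.11 under Cisplatin.

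HIPK2 (ENSG00000064393; chr7:139246316-139477577, minus strand), the activating kinase, fell with Cisplatin and was lower in shRNF113A than in shControl cells. It was at 120, 62.1 and 109 CPM in untreated shControl cells and at 57.5, 25.9 and 53.5 CPM after Cisplatin. In shRNF113A cells it was at 34.2, 35.0 and 26.7 CPM untreated and at 12.3, 13.4 and 12.4 CPM after Cisplatin. Replicate 2 of shControl cells was the lowest of its group with and without the drug. Cisplatin lowered HIPK2 2.13-fold in shControl cells (-1.09 ± 0.28, adjusted p = 0.00512) and 2.52-fold in shRNF113A cells (-1.33 ± 0.29, adjusted p = 0.00162). HIPK2 was lower in shRNF113A than in shControl cells, 3.03-fold in untreated cells (-1.60 ± 0.28, adjusted p = 0.00144) and 3.59-fold under Cisplatin (-1.84 ± 0.29, adjusted p = 0.000452), where it was the 343rd lowest of 15352 log2 fold changes. The interaction was -0.24 ± 0.40 (95% interval -1.02 to 0.53, adjusted p = 0.780), an interval too wide to say whether the falls are alike. Each of these 4 calls held whichever library was left out.

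TP73 (ENSG00000078900; chr1:3569084-3652765, plus strand) was close to the limit of detection. Its counts were 9, 22 and 14 in untreated shControl cells, 4, 11 and 9 after Cisplatin, 7, 11 and 3 in untreated shRNF113A cells, and 0, 3 and 1 in treated shRNF113A cells. With 4 reads in all, the last condition was the lowest, though its libraries overlap those of untreated shRNF113A cells at 3 reads. The fall with Cisplatin was called in shRNF113A cells (-2.03 ± 0.82, adjusted p = 0.0412), a call lost in 5 of the 12 fits that left out a library: untreated shControl replicate 3 (adjusted p = 0.0522), treated shRNF113A replicates 1 (0.124) and 3 (0.0994), and untreated shRNF113A replicates 1 (0.0726) and 2 (0.149). It was also lost with DESeq2 (-2.15, adjusted p = 0.0542) and with library sizes in place of TMM scaling (-1.94, adjusted p = 0.0548). In shControl cells the fall was not called (-1.05 ± 0.52, adjusted p = 0.102). There, libraries with the same replicate number deviated together, and a fit with the replicate number as a block gave -1.05 (adjusted p = 0.0486). When reads of either strand were counted, the change with Cisplatin in shRNF113A cells was 0.09, so the direction for TP73 depends on counting by strand.

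MDM2 and TP73 each have a match to the p53 response element near a start of transcription, shown here because MDM2 rose and TP73 did not. The element is the p53 consensus of a repeated decamer with no spacer. It was searched on both strands of RefSeq 300-base promoter windows (GRCh38.p14). At most 2 mismatches were allowed, none of them at the fixed C and fixed G of each decamer. Of 35116 such windows 0.285% held a match. Windows were at hand for 6 of the 7 genes, 16 in all, and 3 windows of 2 genes held one, the 3 covering 2 different positions. Capitals mark the bases that fit the consensus, and lower case the mismatches.
MDM2, chr12:68808923-68808942, plus strand: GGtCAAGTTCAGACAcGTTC
TP73, chr1:3690596-3690615, plus strand: GGGCAAGCTgAGGCcTGCCC
A match is a description of the letters and not a site of binding, and nothing follows for p53 from the windows without one, which include that of PPM1D.

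The wider p53 network was described in 6 lists of other genes. Of 30 p53 target genes 29 rose with Cisplatin in the additive model, none fell and PERP, a gene named after its value was seen, was at 0.16 (adjusted p = 0.0636). Among all genes 34.8% rose and 32.1% fell. The median log2 fold change of these 30 was 2.06, against 0.03 over all genes. BTG2, an antiproliferative gene, rose most (4.07 ± 0.15), followed by TP53INP1 (4.02 ± 0.13), whose protein assists p53. The interaction of the 30 targets had a median of -0.38 (all genes 0.00), with 8 lower and 0 higher, where 2.27% of all genes were lower. Under Cisplatin 13 targets were lower and 0 higher in shRNF113A cells, where 21.8% of all genes were lower and 21.1% higher. In untreated cells 8 targets were higher and 5 lower in shRNF113A cells, where 12.8% of all genes were higher and 14.6% lower.

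Among the other regulators the median changes were smaller. In the additive model 34.8% of all genes rose with Cisplatin and 32.1% fell, beside which the counts of these lists, here and in the next paragraph, are to be read. Of 11 other ubiquitin ligases acting on p53, 5 rose and 4 fell with Cisplatin (median 0.03). TOPORS (0.65 ± 0.05) and CUL9 (0.30 ± 0.08) rose most, and RFWD2, which encodes the ligase COP1 (-0.94 ± 0.09), and UBE4B (-0.89 ± 0.10) fell most. Of 9 other deubiquitinases acting on p53 or MDM2, 6 rose and 0 fell (median 0.24), led by USP2 (1.39 ± 0.16), which deubiquitinates MDM2, and USP15 (0.54 ± 0.10). Of 20 enzymes that modify p53, 11 rose and 5 fell (median 0.26). HIPK1, a relative of HIPK2, rose by 0.69 ± 0.08 and the deacetylase SIRT1 by 0.66 ± 0.07, whereas the checkpoint kinase CHEK1 was at -0.88 ± 0.07 and the methyltransferase SMYD2 at -0.51 ± 0.06.

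Of 12 relatives and cofactors of p53, 5 rose and 4 fell (median 0.10). PPP1R13L, which encodes the p53 inhibitor iASPP (1.53 ± 0.13), and PML, which organises nuclear bodies that hold p53 (1.51 ± 0.09), rose most, while TP63 (-3.27 ± 0.30) and WWOX (-2.75 ± 0.12) fell most. TP63, the third member of the p53 family, was also higher in untreated shRNF113A than in untreated shControl cells (1.83 ± 0.34, adjusted p = 0.00202). It averaged 1.14 and 0.151 CPM in untreated and treated shControl and 4.04 and 0.342 CPM in untreated and treated shRNF113A cells. These levels are low, so the size of its fall rests on few reads. Of 11 ribosomal and nucleolar proteins that bind MDM2, 10 were tested, with CDKN2A at 0. Of these RPS27L (1.51 ± 0.09) and GNL3 (0.24 ± 0.07) rose, NPM1 (-0.93 ± 0.08) fell and the other 7 were not called (median 0.00). RPS27L is counted among the p53 targets as well. Depletion, in the additive model, was called as follows in these lists, where 23.5% of all genes were higher and 24% lower: 3 ligases were higher and 2 lower, 2 deubiquitinases higher and 0 lower, 1 modifying enzyme higher and 4 lower, 3 relatives or cofactors higher and 1 lower, and 1 ribosomal or nucleolar gene in each direction, beside 1 p53 target higher and 10 lower.

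For each gene with a 2-fold call, the genes of at least 10 CPM whose log2 profile over the 12 libraries was closest were found. The measure was the root mean square difference after centring each profile on its mean. For MDM2 these were CD82 (0.20), ZNF79 (0.25) and RETSAT (0.25 log2 units), beside a spread of the MDM2 profile itself of 1.48. CD82 averaged 2.61, 24.9, 3.26 and 15.5 CPM in untreated and treated shControl and in untreated and treated shRNF113A cells. For PPM1D they were PPP1R15A (0.19), GDF15 (0.21) and SUSD6 (0.21). For HIPK2 they included KCNAB2 (0.27) and IL1R1 (0.31), and IL1R1 averaged 61.6, 21.9, 20.8 and 9.08 CPM in the same order of conditions. For TP73 they were ZNRF3 (0.42), NHS (0.43) and LINC00673 (0.43), a weaker likeness resting on few TP73 reads.

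The splicing tables hold, for each event, the reads of 2 forms in every library, counted in 4 pairwise comparisons. The libraries of a condition are not named there and are called a, b and c. Of the events of the 7 genes 76, 62, 50 and 79 had enough reads to be tested for Cisplatin in shControl cells, Cisplatin in shRNF113A cells, depletion in untreated cells and depletion under Cisplatin. Past an adjusted p of 0.05 were 0, 2, 0 and 7 of them in this order (edgeR quasi-likelihood test of one form against the other), where 0.529%, 2.61%, 0.906% and 2.32% of all events were. At an unadjusted p under 0.05 there were 6, 4, 0 and 17, against 6.15%, 10.2%, 5.63% and 9.65% of all events. With inclusion at least 0.2 apart as well there were 0, 1, 0 and 0, against 0.0681%, 0.283%, 0.058% and 0.172% of all events. All 7 events called for depletion under Cisplatin lie in MDM2, and they share reads.

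Exon 6 of MDM4, with Cisplatin in shRNF113A cells, was the one called event with a difference of at least 0.2 in inclusion. Skipping of this exon of 68 nt shifts the reading frame and gives MDM4-S, a transcript that yields little full-length MDM4. The exon is at chr1:204506558-204506625 on the plus strand of GRCh37 (hg19), inside the coding region. It is printed with 20 bases of each flanking intron to show the exon the reads join or leave out, with the exon in capitals.
MDM4 exon 6, chr1:204506538-204506645: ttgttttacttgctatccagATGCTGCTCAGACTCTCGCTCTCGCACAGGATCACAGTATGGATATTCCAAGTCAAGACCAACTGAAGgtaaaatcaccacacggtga

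The reads were few, 19 to 56 per library. Inclusion, corrected for the number of positions each form offers, was 73.3, 38.6 and 52.9% in untreated shControl cells and 40.7, 13.5 and 23.6% after Cisplatin, values that overlap. In shRNF113A cells it was 41.6, 48.3 and 59.0% untreated and 13.7, 24.5 and 6.29% after Cisplatin, with no overlap. Summed over libraries, inclusion and skipping reads were 51 and 23 in untreated shControl, 48 and 73 in treated shControl, 52 and 29 in untreated shRNF113A and 23 and 68 in treated shRNF113A cells. The log2 odds ratio with Cisplatin was -2.42 ± 0.70 in shRNF113A cells (adjusted p = 0.0299) and -1.75 ± 0.69 in shControl cells (adjusted p = 0.541, unadjusted p = 0.0101). The call in shRNF113A cells was kept in 1 of the 6 fits that left out a library, with adjusted p up to 0.374. A fit of all 12 libraries together, chosen after the data were seen, gave -2.08 ± 0.44 for Cisplatin (adjusted p = 0.000121), -0.65 ± 0.44 for depletion (adjusted p = 0.636) and -0.68 ± 0.92 for their interaction (adjusted p = 0.911).

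**Figure D3:**
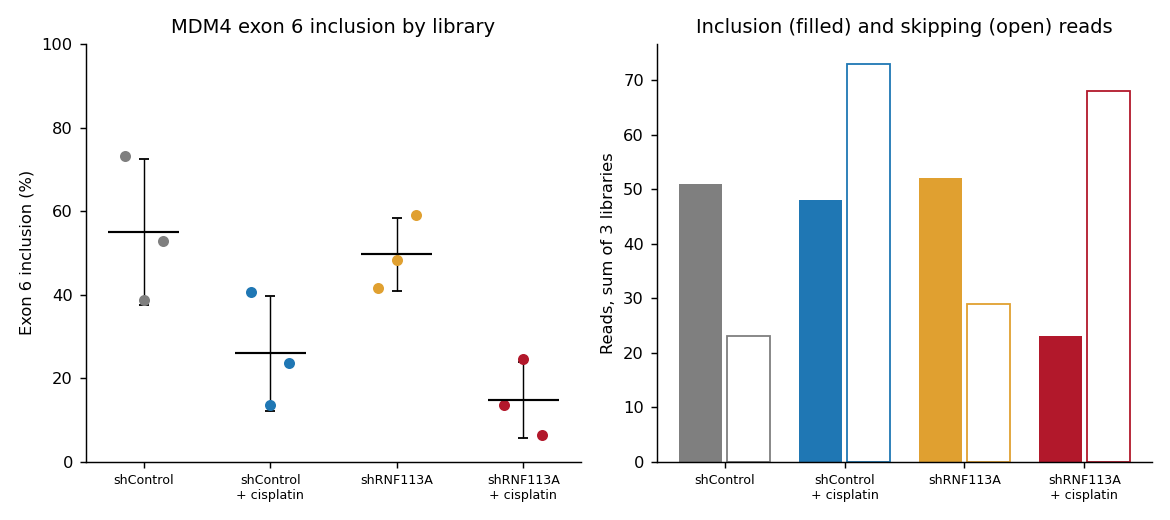
Left, inclusion of MDM4 exon 6 in percent in each library (dots), with means and SDs; right, inclusion (filled) and skipping (open) reads summed over the 3 libraries of a condition. Mean inclusion is 54.9 and 49.6% in untreated shControl and shRNF113A cells and 25.9 and 14.8% in treated ones, and skipping reads outnumber inclusion reads only under Cisplatin.

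In MDM2 a junction that joins exon 2 to exon 6 appeared almost only in Cisplatin-treated shRNF113A cells. It leaves out exons 3 to 5, which encode much of the part of MDM2 that binds p53. The exons are numbered on the Gencode 44 canonical transcript, and the junction joins the end of exon 2 at chr12:69203072 to the start of exon 6 at chr12:69218143 (GRCh37, plus strand). Its last 15 bases of exon 2 and first 15 bases of exon 6, the latter in capitals, show the sequence that identifies these reads.
MDM2 exon 2 to exon 6: gaacaagagaccctgAATCATCGGACTCAG
The junction had 0, 0 and 0 reads in untreated shControl cells, 0, 0 and 1 in treated shControl cells, 0, 0 and 0 in untreated shRNF113A cells and 6, 3 and 3 in treated shRNF113A cells. All 3 treated shRNF113A libraries lay above all others, although MDM2 itself had 158507 read pairs in treated shControl cells and 62798 in treated shRNF113A cells. Untreated shControl and shRNF113A cells had only 12941 and 14875 MDM2 read pairs. With so few, the absence of the junction there cannot show that it depends on Cisplatin.

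Of the 7 MDM2 events called for depletion under Cisplatin, 3 are skipped exons (exons 3, 4 and 5) whose skipping form is this junction. Mean inclusion was 99.93 and 97.06% in treated shControl and shRNF113A cells for exon 4 (adjusted p = 0.0150), 99.96 and 98.66% for exon 5 (adjusted p = 0.0306) and 99.97 and 98.80% for exon 3 (adjusted p = 0.0351). The first of these calls was kept in 1 of the 6 fits that left out a library, without library b of treated shRNF113A cells, and the others in none, with adjusted p up to 0.421, 0.488 and 0.528. The event that sets exon 3 against exon 6 holds the same junction, with 0, 0 and 1 reads of the form with exon 6 in treated shControl and 7, 3 and 3 in treated shRNF113A cells (adjusted p = 0.000762), and it was called in all 6 fits that left out a library. The other 3 set exon 3 against exon 4 with nearly the same reads. In the first of these the length-corrected share of exon 3 reads was 65.3, 65.2 and 68.1% in treated shControl and 73.1, 69.9 and 69.9% in treated shRNF113A cells (adjusted p = 0.0195), a difference called in 2 of 6 such fits. The reads of its 2 forms, such as 710 and 367 in library a of treated shRNF113A cells, are the inclusion reads of exons 3 and 4 above. With mean inclusion of both exons at 97.06% or more, it compares coverage of 2 exons of mostly the same transcripts. It does not show a choice between them. Over all 7 events, the fits that left out 1 library called 1 to 5, the fewest without library a of treated shControl or library c of treated shRNF113A cells.

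Other joins of distant MDM2 exons were also rare. Exon 3 joined to exon 9 had 5, 4 and 11 reads in treated shControl and 1, 4 and 2 in treated shRNF113A cells, with 0 in untreated shControl and 2 in untreated shRNF113A cells. Exon 2 joined to exon 5 had 6, 5 and 3 reads in treated shControl and 0, 4 and 2 in treated shRNF113A cells. Exon 2 joined to exon 11 had none in any shControl library, 0, 1 and 0 in untreated shRNF113A cells and 2, 4 and 0 in treated shRNF113A cells. Per 10000 MDM2 read pairs, all joins that skip at least 2 exons summed to 4.64 in untreated and 4.79 in treated shControl cells, and to 6.05 and 7.64 in untreated and treated shRNF113A cells. Joins that skip 1 exon summed to 17.0 and 6.81 in shControl and 18.2 and 11.6 in shRNF113A cells. These sums were not tested.

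**Figure D4:**
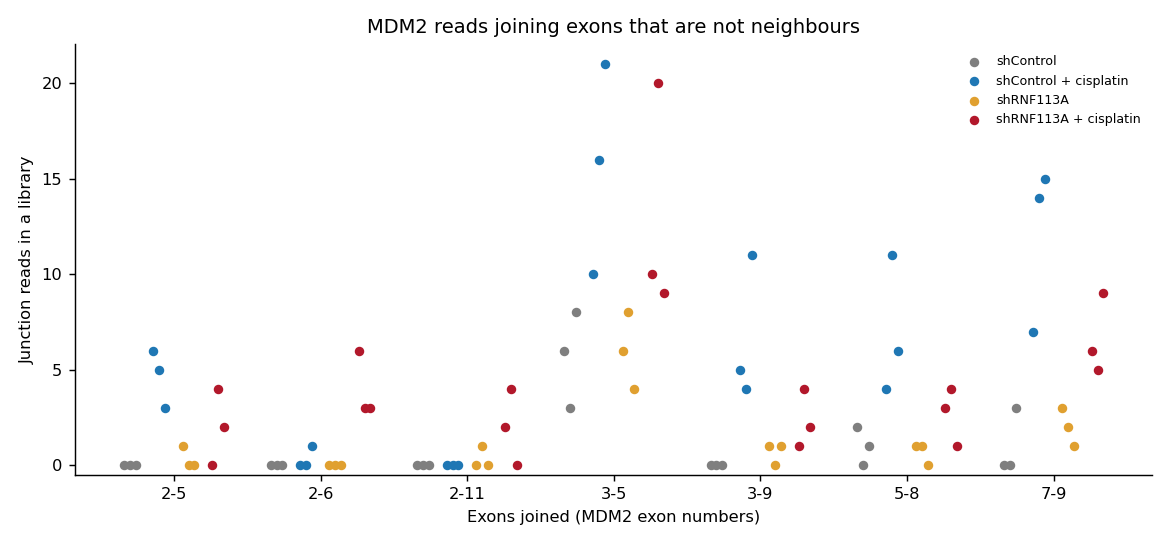
Reads in each library (dots) that join 2 MDM2 exons which are not neighbours, for 7 pairs of exons named on the horizontal axis. The 2-6 join has 3 to 6 reads in every Cisplatin-treated shRNF113A library and at most 1 in any other, while the 3-9 join is highest, at 4 to 11 reads, in Cisplatin-treated shControl cells.

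RCHY1 gave the second event called for Cisplatin in shRNF113A cells. Exon 7 (27 nt on the minus strand, chr4:76416821-76416847) can end at a donor further downstream, giving an exon of 55 nt (chr4:76416793-76416847). The long form had 0, 0 and 0 reads in untreated and 1, 3 and 8 reads in treated shRNF113A cells, beside 97, 93 and 101 and then 99, 154 and 97 reads of the short form (adjusted p = 0.0315). The call was kept in 2 of the 6 fits that left out a library. In shControl cells the long form had 3, 0 and 0 reads untreated and 3, 3 and 4 reads after Cisplatin (adjusted p = 0.781).

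Intronic reads were taken as the reads of the whole gene minus those of its exons, and tested against the exonic reads. A change of both in the same proportion drops out, whereas a fall of the exonic reads alone raises the ratio. TP73 had too few reads (0 to 7 intronic reads in a library), which left 6 genes. With Cisplatin in shControl cells the ratio rose in 1 of the 6, HIPK2, where 8.56% of all 9786 genes rose. With depletion in untreated cells it rose in 4 of the 6 (55.5% of all genes), and it rose in all 6 both with Cisplatin in shRNF113A cells (79.9%) and with depletion under Cisplatin (82.4%). The rise of these genes was thus part of a shift of most genes: the median log2 ratio over all genes was 0.28, 0.74, 0.47 and 0.97 for Cisplatin in shControl cells, Cisplatin in shRNF113A cells, depletion in untreated cells and depletion under Cisplatin. The medians of the 6 genes were 0.13, 0.83, 0.55 and 1.30 in the same order.

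HIPK2 had the largest log2 ratio of the 6 genes in 3 of the 4 comparisons, and for depletion in untreated cells MDM2 and RCHY1 were higher. Its intronic reads were 1.62, 1.44 and 2.22% of its exonic reads in untreated shControl and 2.99, 5.27 and 4.55% in treated shControl cells. In shRNF113A cells they were 2.48, 3.55 and 2.42% untreated and 13.8, 16.3 and 18.96% after Cisplatin. The intronic reads themselves numbered 35 to 91 in untreated shControl and 52 to 70 in treated shRNF113A cells, while the exonic reads went from 2431 to 4319 down to 327 to 430. The log2 ratio rose by 2.499 ± 0.21 with Cisplatin in shRNF113A cells (adjusted p = 2.42e-13) and by 1.97 ± 0.28 with depletion under Cisplatin (adjusted p = 9.70e-06), which were 1.75 and 1.00 above the median gene. The rise in shControl cells was 1.24 ± 0.30 (adjusted p = 0.0108), and it was lost without untreated shControl replicate 1 (1.18, adjusted p = 0.0502) or replicate 2 (1.12, adjusted p = 0.0517). With depletion in untreated cells it was 0.68 ± 0.23 (adjusted p = 0.0153), lost without untreated shRNF113A replicate 2 (0.47, adjusted p = 0.168).

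MDM2 had 1.71, 1.31 and 1.72% intronic reads in untreated and 2.06, 1.26 and 2.85% in treated shControl cells, and 2.65, 2.81 and 2.39% in untreated and 4.53, 4.50 and 5.68% in treated shRNF113A cells. Both shRNF113A conditions lay above their shControl counterparts in untreated and in treated cells, with no overlap. The log2 ratio rose by 0.73 ± 0.17 with depletion in untreated cells (adjusted p = 0.00121) and by 1.32 ± 0.24 under Cisplatin (adjusted p = 9.61e-05). With Cisplatin in shControl cells it was 0.31 ± 0.29 (adjusted p = 0.545), and 0.62 (adjusted p = 0.0459) without treated shControl replicate 2. PPM1D had 3.85, 2.56 and 4.38% and 3.50, 2.80 and 5.05% in untreated and treated shControl cells, 3.85, 5.91 and 3.38% in untreated and 9.25, 10.2 and 12.5% in treated shRNF113A cells. Only its last condition stood apart, by 1.52 ± 0.26 from treated shControl cells (adjusted p = 5.26e-05).

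RCHY1 ranged from 5.63 to 7.61% in untreated and 6.04 to 9.34% in treated shControl cells, and reached 8.87 to 11.6% and 16.3 to 18.8% in untreated and treated shRNF113A cells. The rises with depletion were 0.69 ± 0.21 in untreated cells (adjusted p = 0.00851) and 1.29 ± 0.26 under Cisplatin (adjusted p = 0.000196). USP7, whose level hardly changed, had 1.74 to 2.28, 1.71 to 2.53, 2.28 to 3.10 and 4.05 to 5.16% in the same order of conditions, and its log2 ratio rose by 1.11 ± 0.25 with depletion under Cisplatin (adjusted p = 0.000436). In untreated cells its rise of 0.41 ± 0.15 (adjusted p = 0.0256) was lost without untreated shControl replicate 3 (0.31, adjusted p = 0.137) or untreated shRNF113A replicate 1 (0.40, adjusted p = 0.0851) or 2 (0.31, adjusted p = 0.139). MDM4 had 6.50 to 8.28, 4.58 to 10.97, 7.87 to 9.51 and 12.1 to 15.02%. Its rise with depletion under Cisplatin was 0.73 ± 0.29 (adjusted p = 0.0219), below the median gene, and was lost without Cisplatin-treated shControl replicate 2 (0.40, adjusted p = 0.0877) or Cisplatin-treated shRNF113A replicate 3 (0.65, adjusted p = 0.0876).

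**Figure D5:**
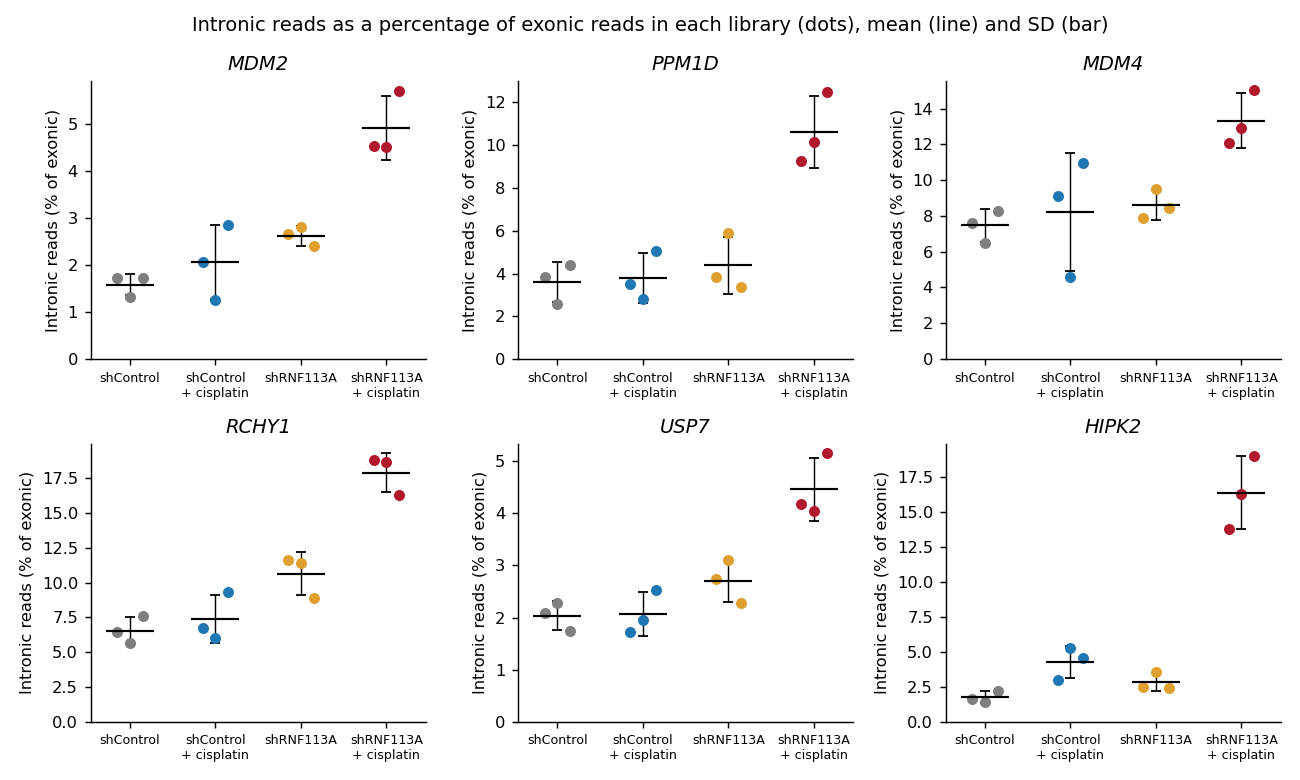
Intronic reads as a percentage of exonic reads for 6 genes in each library (dots), with means and SDs (n = 3), on linear axes that start at 0. Cisplatin-treated shRNF113A cells are highest for every gene, from 4.46% on average for USP7 to 17.9% for RCHY1, and HIPK2 goes from 1.76% in untreated shControl cells to 16.3%.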

How the data were processed

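A549 poly(A) RNA was sequenced in 12 stranded libraries, 3 per condition. Per the labels and the study's methods, the authors discarded rRNA, tRNA and mitochondrial reads, cut the rest to 73 nt and mapped these with STAR 2.5.2b on hg19. The deposited counts per gene are raw read pairs on the gene's strand. The deposited HTSeq counts per gene and per exon cover protein-coding genes of Gencode 19. The deposited rMATS tables hold read counts of 2 forms of each event in cells of 3 values (a unit of other kind). Their p-values, false discovery rates and inclusion levels are the authors' own comparisons and were not used.

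The counts were tested with edgeR 4.0.16 in R 4.3.3 (filterByExpr, TMM scaling, quasi-likelihood test, Benjamini-Hochberg over all genes tested, or all events of a category and comparison) in the study's additive and interaction models; a call is an adjusted p under 0.05. Intronic reads are gene minus exon counts, so reads across exon-intron borders count as intronic. Genes needed at least 10 intronic and 10 exonic reads, and events at least 10 reads, in every library. Exon numbers and sequence came from Gencode 44 and GRCh37, whose MDM2 and MDM4 exons have the coordinates of the deposited tables. TMM-scaled CPM were computed from the counts. The 95% intervals were set from the SE by the normal distribution, so they are narrower than the quasi-likelihood test would give.

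The 7 genes, the 6 lists and the rule for named genes were chosen with earlier results of these data known. Named are the 7 genes, their called events (at most 3 per gene by difference in inclusion, and MDM4 exon 6), their 3 closest profiles (1 of those of HIPK2 is not reported here), and the 2 list members with the largest rise and fall under Cisplatin in the additive model; MDM2 events beyond the 3 are described because they share reads. On simulated data with 200 changed genes of 3-fold, 196 were called for Cisplatin and 193 for depletion. Of 200 skipped exons changed by 2 in natural log odds, 169 were called. These exons were drawn from those of intermediate inclusion, unlike the MDM2 exons here, so the share called does not give the power for the events named. Alternatives were counts of both strands, library-size scaling, DESeq2 1.42.0, other count and read minimums, only the 6 libraries compared, a replicate block, and leaving out each library. Libraries of equal number deviated together between untreated and treated shControl cells (r = 0.632, 0.731 and 0.480 over 9779 genes) and not in all pairs of the other comparisons. Untreated shControl replicate 3, however, was closer to treated shControl replicate 1 than to treated replicate 3. p-values measure the spread between 3 biological replicates.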

Additional observations from a re-analysis of the deposited data

Results flagged for a closer look

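The response of MDM2 to Cisplatin differed between shControl and shRNF113A cells by -1.11 on the log2 scale, in a test of the interaction itself (adjusted p = 0.00626, edgeR). MDM2 rose in 3 of 3 treated libraries of either cell type, by 10.9-fold and 5.05-fold on average. PPM1D differed in the same direction by -0.96 (adjusted p = 0.0189), with rises of 7.18-fold and 3.70-fold. Cisplatin-treated shRNF113A cells also had the fewest read pairs and the largest share of read pairs on no annotated exon, whose part in these differences was not tested.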

How the results depend on the processing

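Of the values for single genes and events, 1067 kept direction and side of the threshold, 46 lost a call, 18 gained one and 19 changed sign; of the counts, 331 moved by less than 1.5 times and 43 by more. The causes were not tested, except that stricter minimums test fewer features. Genes past 2-fold for depletion (additive model) were 1 in place of 2 with at least 10 counts in every library and 1 with counts of both strands. With at least 10 reads of each form, chosen after seeing the data, 1 event was called for Cisplatin in shControl cells in place of 0. With at least 50 reads in every library, 0 events were past 0.2 for Cisplatin in shRNF113A cells in place of 1. With at least 50 intronic and exonic reads, 0 genes in place of 1 were called for Cisplatin in shControl cells and 2 in place of 4 for depletion in untreated cells.

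Leaving out 1 library gave 6 to 7 calls for Cisplatin and 2 to 3 for depletion in the additive model (2-fold: 4, and 1 to 2), 5 to 6 and 4 to 6 for Cisplatin in shControl and shRNF113A cells (2-fold: 2 to 3 and 3 to 4), 1 to 2 and 3 to 5 for depletion in untreated and treated cells (2-fold: 1, and 1 to 3), and 1 to 2 for the interaction (2-fold: 1 to 2). Events called were 0 to 2 (past 0.2: 0 to 1) for Cisplatin in shRNF113A cells and 1 to 5 for depletion under Cisplatin. Intronic calls were 0 to 2, 6, 2 to 4 and 5 to 6.

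The changes of sign were of small values or of TP73. With counts of both strands, TP73 was at 0.087 for Cisplatin in shRNF113A cells and 0.35 for the interaction. The USP7 interaction was 0.0050 with at least 10 counts in every library, and -0.095 to 0.083 with a library left out, positive in 3 fits (0.083, 0.034 and 0.031). With a library left out, depletion in untreated cells ranged from -0.048 to 0.12 for RCHY1 and from -0.15 to 0.012 for USP7, depletion under Cisplatin from -0.027 to 0.17 for MDM4 (negative in 2 fits, at -0.027 and -0.012), and MDM4 exon 6 in untreated cells from -0.69 to 0.089. Intronic ratios for Cisplatin in shControl cells ranged from -0.16 to 0.43 for MDM4 (negative in 3 fits, at -0.16, -0.017 and -0.00424), -0.040 to 0.29 for RCHY1, -0.15 to 0.14 for USP7 (also -0.095) and -0.21 to 0.24 for PPM1D (also -0.17).

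A replicate block pairs libraries by number. For Cisplatin in shControl cells the deviations matched this pairing best for replicates 1 and 2 but not for replicate 3. Elsewhere the pairing rests on the shared number alone. The block gave 2 genes past 2-fold for depletion under Cisplatin in place of 1, TP73 being called there (-2.05, adjusted p = 0.0240). It also called TP73 for Cisplatin in shControl cells (-1.05, adjusted p = 0.0486, and -1.06 and 0.0362 in the 6 libraries compared). It changed no other call of these genes. No paired analysis was possible for splicing because the libraries in those tables carry no number. Depth limits TP73 (0 to 22 reads in a library) and MDM4 exon 6 (19 to 56 reads).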
